A study of Mus musculus with 22 samples.

Results

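The 9 genes described here encode transcription factors of the macrophage. They are the 4 members of the MiT/TFE family (Mitf, Tfe3, Tfeb and Tfec) and 5 factors known from the monocyte and macrophage lineage (Maf, Spi1, Cebpa, Cebpb and Klf4). They were picked by symbol through the Ensembl IDs of the deposited count tables, and all 9 were found among the 55487 genes of those tables. Bulk RNA was sequenced in 22 libraries from wild-type male mice of the C57BL/6 strain. The RNA of 11 libraries was that of splenic monocytes kept in medium with serum. The other 11 held macrophages, obtained by giving such monocytes PMA (phorbol myristate acetate, an activator of protein kinase C) at 200 ng/mL over 5 days. For 24 hours before RNA was taken, cells of either kind received vehicle or ox-LDL at 50 µg/mL. Ox-LDL is oxidised low-density lipoprotein, a modified lipid particle that turns macrophages into lipid-laden foam cells, and the series was set up to compare such foamy cells with cells that are not foamy. Vehicle monocytes gave 6 libraries (replicates 1 to 6) and ox-LDL monocytes 5 (replicates 7 to 11), vehicle macrophages 5 (A to E) and ox-LDL macrophages 6 (G to L). The labels give neither the age of the mice nor whether replicates are separate mice or separate cultures, so each p-value reflects only how these libraries vary, and that variation may be technical. They also give no culture time for the monocytes, so PMA and the days in culture cannot be told apart in any comparison of the cell types.

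The MiT/TFE proteins are basic helix-loop-helix leucine zipper factors that bind E-box sequences as homodimers or as heterodimers with each other. When nutrients are scarce or lysosomes are damaged they move from the lysosome surface to the nucleus and switch on genes of lysosomes and autophagy, the CLEAR network (coordinated lysosomal expression and regulation). That step is set by phosphorylation of the proteins, which RNA levels do not show. Of the lineage factors, Spi1 encodes PU.1, an ETS factor needed for the myeloid lineage. Cebpa and Cebpb encode C/EBP factors that act with PU.1 on myeloid genes, Maf encodes c-Maf, a factor of tissue macrophages, and Klf4 encodes a zinc finger factor known from monocyte differentiation.

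Total counts per library ran from 37330389 to 50257111. In what follows CPM means counts per 1000000 after scaling by TMM (trimmed mean of M values, a correction for differing RNA composition). Levels of different genes are compared only in the deposited TPM, which is scaled by the deposited gene length. The summed CPM of 18 macrophage markers was 12230 to 21467 in the 11 monocyte libraries and 63447 to 86098 in the 11 macrophage libraries. The monocyte libraries also carried markers of other cell types. The sum of 14 dendritic cell markers was 7522 to 12656 CPM there against 74.8 to 259 CPM in macrophages, led by Ccr7, the homing receptor of mature dendritic cells, at 6997 CPM with vehicle. The sum of 17 neutrophil markers was 5579 to 50787 CPM against 133 to 341 CPM, and that of 12 erythroid markers 454 to 14507 CPM against 1.42 to 4.17 CPM. B-cell markers (10 genes) summed to 230 to 895 CPM against 1.71 to 17.5 CPM, T-cell and NK-cell markers (14 genes) to 94.2 to 226 CPM against 11.2 to 109 CPM, and mast cell and basophil markers (10 genes) to 268 to 661 CPM against 0.0929 to 2.25 CPM. Nearly all of the T-cell and NK-cell sum in macrophages was Cd4, at 63.5 ± 15.9 CPM in vehicle monocytes and 72.5 ± 33.6 CPM in vehicle macrophages. Lck stood at 33.1 ± 19.7 and 0.288 ± 0.179 CPM. Defining genes at 0 in all 11 macrophage libraries included Car1 (erythroid), Pax5 (B cell), Ncr1, Nkg7 and Gzma (NK cell) and Mcpt8, Fcer1a and Tpsb2 (basophil and mast cell). Ly6c2, a marker of classical monocytes, stood at 107 ± 112 CPM (SD, n = 6) in vehicle monocytes and Csf1r, the receptor of macrophage colony-stimulating factor, at 791 ± 237 CPM. The 15 monocyte markers summed to 956 to 3614 CPM in monocytes and 416 to 1619 CPM in macrophages, ranges that overlap. Monocyte replicates 5, 6, 10 and 11, the highest in neutrophil markers, gave 3088 to 3614 CPM, and the other monocyte libraries 956 to 1078 CPM. Chil3, which is in both the monocyte and the neutrophil list, stood at 679 ± 606 CPM in vehicle monocytes. The part of neutrophils in these sums was not tested. In bulk RNA, fewer cells of a type and less RNA of a gene per cell cannot be told apart.

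The sequence most closely tied to the MiT/TFE family is the CLEAR motif, TCACGTGA, which holds the E-box CACGTG. Of 9 genes of the CLEAR network list described further on whose promoter window holds the motif, the 5 are shown for which the whole stretch printed lies upstream of the start. Each stretch has 30 bases, is read 5′ to 3′ on the strand of the gene from the RefSeq promoter table (GRCm38.p6), and has the motif in capitals.
Ctsd (cathepsin D, a lysosomal protease; chr7:142387908-142387937, minus strand): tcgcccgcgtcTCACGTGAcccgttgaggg
Cln3 (a lysosomal membrane protein; chr7:126583340-126583369, minus strand): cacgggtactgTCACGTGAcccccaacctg
Mcoln1 (the lysosomal calcium channel TRPML1; chr8:3500462-3500491, plus strand): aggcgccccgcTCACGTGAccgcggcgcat
Atp6v1a (a subunit of the proton pump of lysosomes; chr16:44139373-44139402, minus strand): ttttttttaaaTCACGTGAtaggcttaacg
Gla (alpha-galactosidase A; chrX:134601182-134601211, minus strand): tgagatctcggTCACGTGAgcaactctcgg
Gla, another match (chrX:134601215-134601244, minus strand): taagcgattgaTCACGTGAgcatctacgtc
The first base of the motif lies 46 bases before the start of Mcoln1, 99 before that of Ctsd, 122 before that of Cln3, 132 before that of Atp6v1a, and 195 and 228 before that of Gla. Over all 32851 promoter windows of the table, which run from 250 bases before to 50 bases after a start, 0.974% hold TCACGTGA and 7.15% hold CACGTG.

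The same windows were searched for the 9 transcription factor genes themselves, on both strands, for TCACGTGA, CACGTG, the PU.1 motif GAGGAAGT (in 3.2% of all windows) and the C/EBP palindrome TTGCGCAA (in 0.183%). Windows were found for 7 of the 9 genes, all but Maf and Spi1. Klf4 was the only one of the 7 with a match, an E-box 182 bases before its start.
Klf4 (chr4:55532641-55532668, minus strand, E-box in capitals): gcccccgccccCACGTGcgcggagtttg
A match or its absence describes the letters in these windows only.

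By TPM, the factors spanned more than 2 orders of magnitude in each cell type. In vehicle monocytes Spi1 was highest at 800 ± 51.1 TPM (SD, n = 6), followed by Cebpb at 404 ± 126, Tfeb at 84.8 ± 12.9, Cebpa at 67.8 ± 14.4 and Tfe3 at 42.5 ± 7.44 TPM. The low group was Klf4 at 5.56 ± 1.48, Mitf at 5.18 ± 2.04, Maf at 4.49 ± 0.835 and Tfec at 1.56 ± 0.429 TPM. Library ranges overlapped between the neighbours Tfeb and Cebpa, Cebpa and Tfe3, Klf4 and Mitf, and Mitf and Maf, so the order within those pairs is not set beyond the spread. The order and the overlapping pairs were the same in ox-LDL monocytes, where Spi1 stood at 802 ± 73.2 and Tfec at 1.63 ± 0.176 TPM (n = 5).
In vehicle macrophages the order was Spi1 at 552 ± 38.8, Cebpb at 481 ± 60.7, Cebpa at 301 ± 65.5, Tfe3 at 67.0 ± 5.49, Tfeb at 56.1 ± 4.06, Mitf at 30.1 ± 2.01, Maf at 29.7 ± 4.42, Tfec at 3.56 ± 1.11 and Klf4 at 2.01 ± 1.04 TPM (n = 5). Compared with monocytes, Klf4 stood lowest in place of sixth, Tfeb stood below Cebpa and Tfe3, and the other changes of place followed from these. Ranges overlapped for Spi1 and Cebpb, Mitf and Maf, and Tfec and Klf4. In ox-LDL macrophages the order was again the same, from Spi1 at 495 ± 25.9 to Klf4 at 1.56 ± 0.579 TPM (n = 6), and the overlapping pairs were Spi1 and Cebpb, Tfe3 and Tfeb, and Mitf and Maf.

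**Figure D1:**
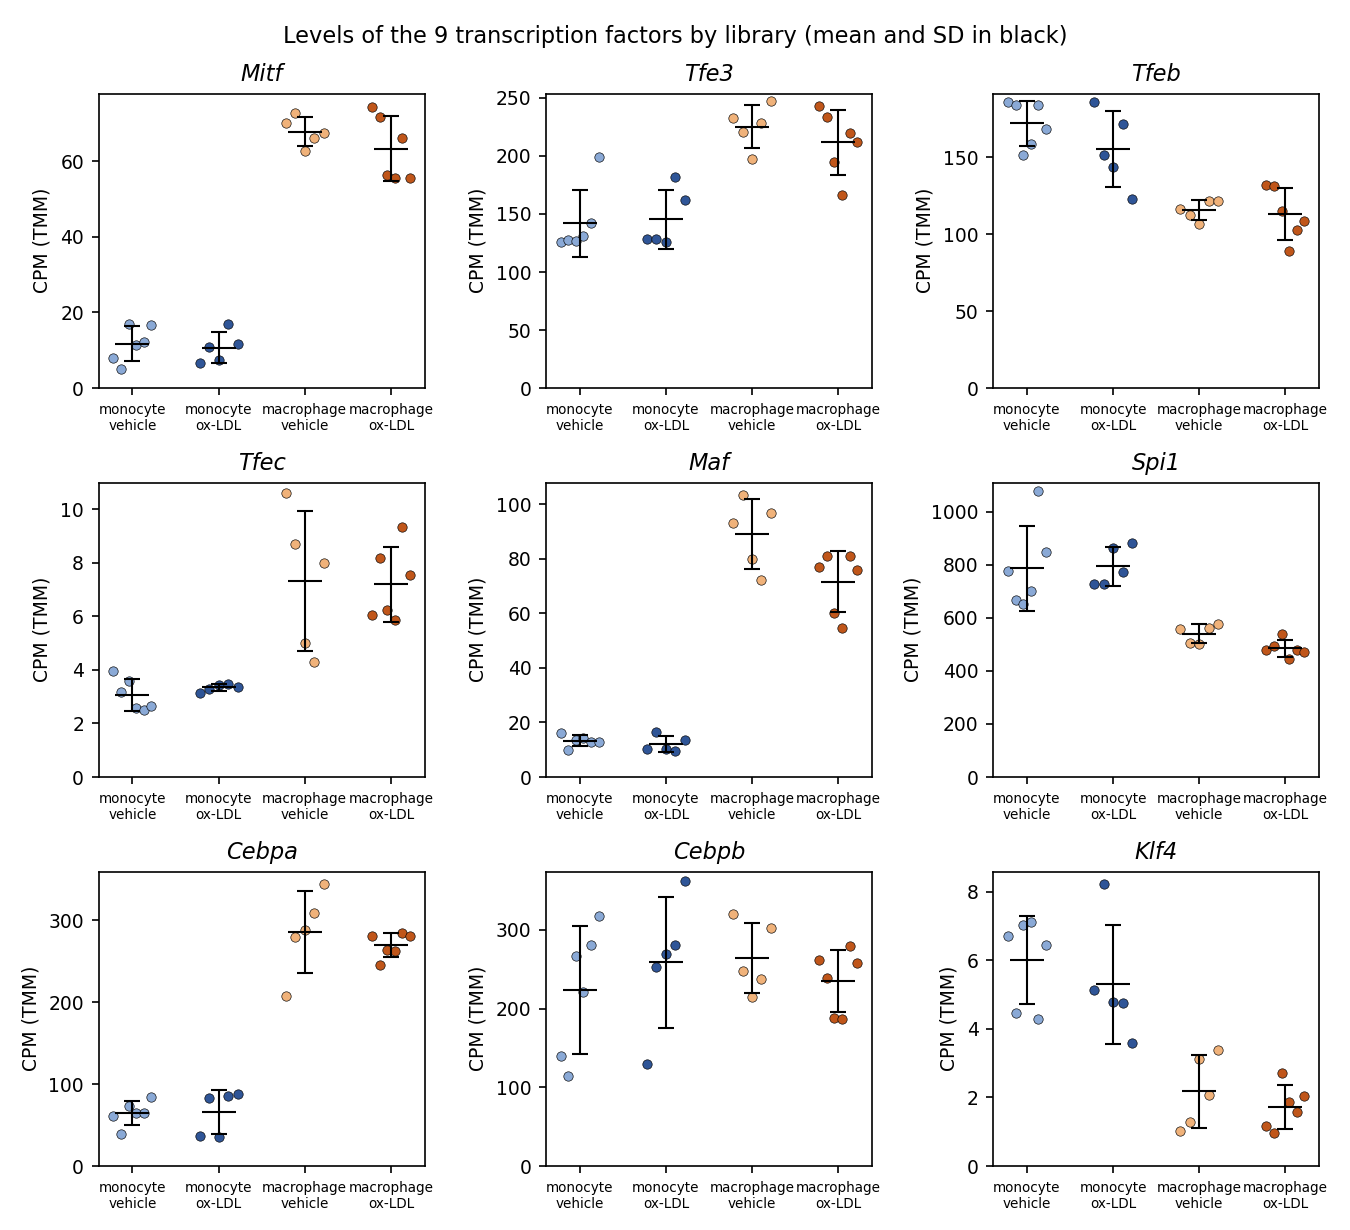
CPM of each of the 9 factors (y axes, linear, from 0) in the 22 libraries by group (x axis), 1 point per library, with the group mean and SD in black. Mitf, Maf and Cebpa lie higher in all 11 macrophage libraries than in all 11 monocyte libraries, while for Cebpb the macrophage libraries (187 to 320 CPM) lie within the wider span of the monocyte libraries (115 to 362 CPM).

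Macrophages differed from monocytes in 8 of the 9 factors, with vehicle and again with ox-LDL. Mitf, Tfe3, Tfec, Maf and Cebpa were higher and Tfeb, Spi1 and Klf4 were lower in macrophages, and no difference was called for Cebpb. Calls are from edgeR's quasi-likelihood test, at an adjusted p (Benjamini-Hochberg over all genes tested) under 0.05. These counts have to be read against a comparison in which most genes moved: 28.5% of 16288 genes were called higher and 35.1% lower with vehicle, and 30.3% and 35% of 15825 genes with ox-LDL. The libraries of the groups did not overlap for 7 of the 9 factors with vehicle and 6 of 9 with ox-LDL, against 49.3% and 49.5% of all genes tested. The vehicle and the ox-LDL comparison share no library.

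Within the MiT/TFE family, Mitf (ENSMUSG00000035158, chromosome 6, 97807052 to 98021349, plus strand; all gene positions are on GRCm38) had the largest change. Mitf encodes the family member first known from melanocytes and osteoclasts. Its level in vehicle monocytes was 5.15 CPM at the lowest, 11.7 at the median and 16.9 at the highest of 6 libraries, and in ox-LDL monocytes it was 6.64, 10.9, 7.52, 16.9 and 11.6 CPM in replicates 7 to 11. In vehicle macrophages it was 70, 72.8, 62.7, 66.0 and 67.5 CPM in replicates A to E, and with ox-LDL it ran from 55.6 through a median of 61.3 to 74.4 CPM in 6 libraries. Every macrophage library was thus above every monocyte library, while the monocyte libraries differed widely among themselves. The vehicle difference was 2.46 on the log2 scale (SE 0.24, 95% interval 1.94 to 2.98, 5.52-fold, edgeR adjusted p = 9.34e-07), and with ox-LDL it was 2.51 (SE 0.22, adjusted p = 3.58e-07).

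Tfeb, a main regulator of lysosome genes, went the other way. Tfeb (ENSMUSG00000023990, chromosome 17, 47737030 to 47792419, plus strand) was at 152, 176 and 186 CPM (lowest, median, highest of 6) in vehicle monocytes and at 186, 151, 144, 172 and 123 CPM in ox-LDL monocytes 7 to 11. Its macrophage levels were 116, 112, 106, 122 and 121 CPM in A to E and 88.8, 111 and 132 CPM (lowest, median, highest of 6) with ox-LDL. The groups did not overlap with vehicle, and with ox-LDL the lowest monocyte library, replicate 11, fell within the macrophage range. The difference was -0.65 with vehicle (SE 0.09, 95% interval -0.85 to -0.46, 1.57-fold lower, adjusted p = 2.43e-05) and -0.52 with ox-LDL (SE 0.13, adjusted p = 0.00386).

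Tfe3 encodes the family member whose lysosomal targets are shared with those of Tfeb. Tfe3 (ENSMUSG00000000134, chromosome X, 7762560 to 7775202, plus strand) was at 126, 129 and 199 CPM (lowest, median, highest of 6) in vehicle monocytes and at 128, 128, 126, 182 and 162 CPM in replicates 7 to 11. In macrophages it was at 233, 221, 197, 229 and 247 CPM in A to E and at 167, 216 and 243 CPM (lowest, median, highest of 6) with ox-LDL. The cell types overlapped in both comparisons, through vehicle monocyte replicate 6 and ox-LDL monocyte replicate 10. The difference was 0.59 with vehicle (SE 0.12, 95% interval 0.33 to 0.85, 1.51-fold, adjusted p = 0.000724) and 0.49 with ox-LDL (SE 0.13, adjusted p = 0.00436).

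Tfec, the least studied member and one largely restricted to the myeloid lineage, was low everywhere. Tfec (ENSMUSG00000029553, chromosome 6, 16833373 to 16898441, minus strand) had 114 to 187 counts per monocyte library and 175 to 499 per macrophage library. Its level was 2.50 to 3.94 CPM in the 11 monocyte libraries and 4.29 to 10.6 CPM in the 11 macrophage libraries, with no overlap. The difference was 1.17 with vehicle (SE 0.24, adjusted p = 0.000730) and 1.05 with ox-LDL (SE 0.15, adjusted p = 3.98e-05).

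The makeup of the family's RNA therefore differed between the cell types. The 4 TPM values summed to 134 ± 15.4 in vehicle monocytes, 125 ± 24.8 in ox-LDL monocytes, 157 ± 10.3 in vehicle macrophages and 149 ± 15.5 in ox-LDL macrophages (SD). Tfeb made up 52.0% to 68.1% of that sum in the 11 monocyte libraries and 33.4% to 39.3% in the 11 macrophage libraries. Mitf made up 1.75% to 6.25% in monocytes and 17.2% to 20.6% in macrophages, and neither share overlapped between the cell types. Tfe3 held 28.2% to 42.1% in monocytes and 40.9% to 44.2% in macrophages, ranges that overlap, and Tfec held 0.876% to 1.52% and 1.33% to 3.22%. The ratio of Tfe3 to Tfeb in TPM was 0.416 to 0.809 in every monocyte library and 1.04 to 1.31 in every macrophage library. By TPM, which rests on gene lengths of 9261 bases for Tfe3 and 5669 for Tfeb, Tfeb thus led in monocytes and Tfe3 in macrophages. By counts, which do not correct for length, the ratio was 0.679 to 1.32 in monocytes and 1.70 to 2.15 in macrophages, again with no overlap. Counts of Tfe3 exceeded those of Tfeb in monocyte replicates 6, 10 and 11 (1.18, 1.06 and 1.32). Shares of a sum depend on each other, and these are given without a test.

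**Figure D2:**
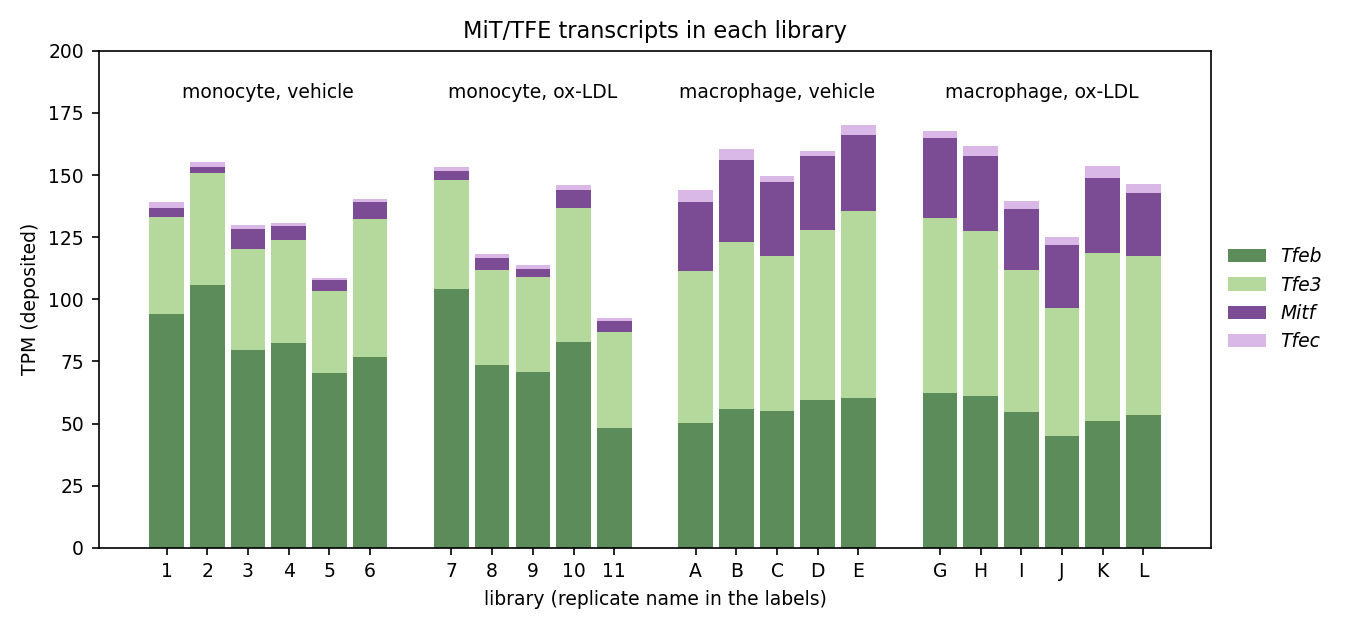
Deposited TPM of the 4 MiT/TFE genes (y axis), stacked in 1 bar for each of the 22 libraries (x axis, by group). The Mitf part of the bar is 1.75% to 6.25% in the monocyte libraries and 17.2% to 20.6% in the macrophage libraries, and the Tfeb part is 52.0% to 68.1% and 33.4% to 39.3%.

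Of the lineage factors, Maf had the largest difference of all 9 genes with vehicle. Maf (ENSMUSG00000055435, chromosome 8, 115682942 to 115707794, minus strand) was at 9.85, 13.2 and 16 CPM (lowest, median, highest of 6) in vehicle monocytes and at 10.2, 16.4, 10.5, 9.69 and 13.5 CPM in replicates 7 to 11. In macrophages it was at 93.2, 103, 79.9, 72.1 and 96.8 CPM in A to E and at 54.6, 76.5 and 81.1 CPM (lowest, median, highest of 6) with ox-LDL. No macrophage library came near the monocyte range. The difference was 2.67 with vehicle (SE 0.14, 95% interval 2.37 to 2.97, 6.37-fold, adjusted p = 1.58e-09) and 2.52 with ox-LDL (SE 0.17, adjusted p = 3.17e-08).

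Spi1 was the most abundant factor by TPM in both cell types and was lower in macrophages. Spi1 (ENSMUSG00000002111, chromosome 2, 91082390 to 91115756, plus strand) was at 653, 739 and 1078 CPM (lowest, median, highest of 6) in vehicle monocytes and at 728, 729, 865, 771 and 881 CPM in replicates 7 to 11. In macrophages it was at 558, 504, 502, 560 and 577 CPM in A to E and at 446, 479 and 540 CPM (lowest, median, highest of 6) with ox-LDL. All 11 macrophage libraries lay below all 11 monocyte libraries. The difference was -0.62 with vehicle (SE 0.13, 95% interval -0.89 to -0.35, 1.53-fold lower, adjusted p = 0.000703) and -0.77 with ox-LDL (SE 0.09, adjusted p = 5.90e-06).

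Cebpa and Cebpb parted. Cebpa (ENSMUSG00000034957, chromosome 7, 35119293 to 35121928, plus strand) was at 39.5, 64.5 and 84.5 CPM (lowest, median, highest of 6) in vehicle monocytes and at 37.0, 83.7, 35.1, 85.6 and 88.1 CPM in replicates 7 to 11. In macrophages it was at 208, 279, 288, 309 and 344 CPM in A to E and at 246, 272 and 285 CPM (lowest, median, highest of 6) with ox-LDL. The cell types did not overlap, and the difference was 2.07 with vehicle (SE 0.17, 95% interval 1.70 to 2.44, 4.2-fold, adjusted p = 1.71e-07) and 1.98 with ox-LDL (SE 0.24, adjusted p = 7.87e-06).
Cebpb (ENSMUSG00000056501, chromosome 2, 167688915 to 167690418, plus strand) encodes the C/EBP factor most tied to inflammatory activation. It was at 115, 244 and 318 CPM (lowest, median, highest of 6) in vehicle monocytes, at 129, 252, 269, 280 and 362 CPM in replicates 7 to 11, at 320, 247, 215, 237 and 302 CPM in A to E, and at 187, 249 and 279 CPM with ox-LDL in macrophages. The groups overlapped widely. The difference was 0.17 with vehicle (SE 0.23, 95% interval -0.32 to 0.66, adjusted p = 0.530) and -0.19 with ox-LDL (SE 0.20, 95% interval -0.63 to 0.25, adjusted p = 0.440). Without ox-LDL monocyte replicate 7, the ox-LDL difference was -0.36 and called lower (adjusted p = 0.0445, with a range of 0.0445 to 0.895 over 20 alternatives). The single exon of Cebpb overlaps exons of Tmem189 on the opposite strand, whose counts over the 22 libraries were 62.1% of those of Cebpb. The strand setting of the counting is not given in the sources used here, so the share of reads between these genes is uncertain. Tmem189 was at 63.4 to 84.6 CPM in vehicle monocytes and 190 to 272 CPM in vehicle macrophages. Its part in the levels of Cebpb was not tested. The ratio of Cebpa to Cebpb in TPM was 0.0746 to 0.251 in monocytes and 0.370 to 0.804 in macrophages.

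Klf4 was the lowest of the lineage factors in macrophages. Klf4 (ENSMUSG00000003032, chromosome 4, 55527143 to 55532466, minus strand) had 167 to 366 counts per monocyte library and 41 to 150 per macrophage library. Its level was 4.28 to 7.11 CPM in vehicle and 3.59 to 8.22 CPM in ox-LDL monocytes, and 1.02 to 3.39 and 0.974 to 2.72 CPM in the macrophages, with no overlap between cell types. The difference was -1.54 with vehicle (SE 0.31, 2.91-fold lower, adjusted p = 0.000564) and -1.67 with ox-LDL (SE 0.28, adjusted p = 0.000125).

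The 8 calls between cell types were the same in every alternative in which the gene was tested, including those without the monocyte libraries high in neutrophil markers and without those low in erythroid markers; Klf4 is not tested where genes under 5 CPM are left out. The marker sums given above of dendritic cells, neutrophils, erythroid cells and B cells are higher in every monocyte than in every macrophage library. So are those of mast cells and basophils. Those of T and NK cells overlap through Cd4, while 13 of those 14 genes were called lower in macrophages with vehicle (median -8.22). Of the 15 monocyte markers, whose sums also overlap, 11 were called lower and 4 higher. Over all genes tested 35.1% were called lower and 28.5% higher. The part of these cell types in the lower levels of Tfeb, Spi1 and Klf4 in macrophages, or in the other differences, was not tested.

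**Figure D3:**
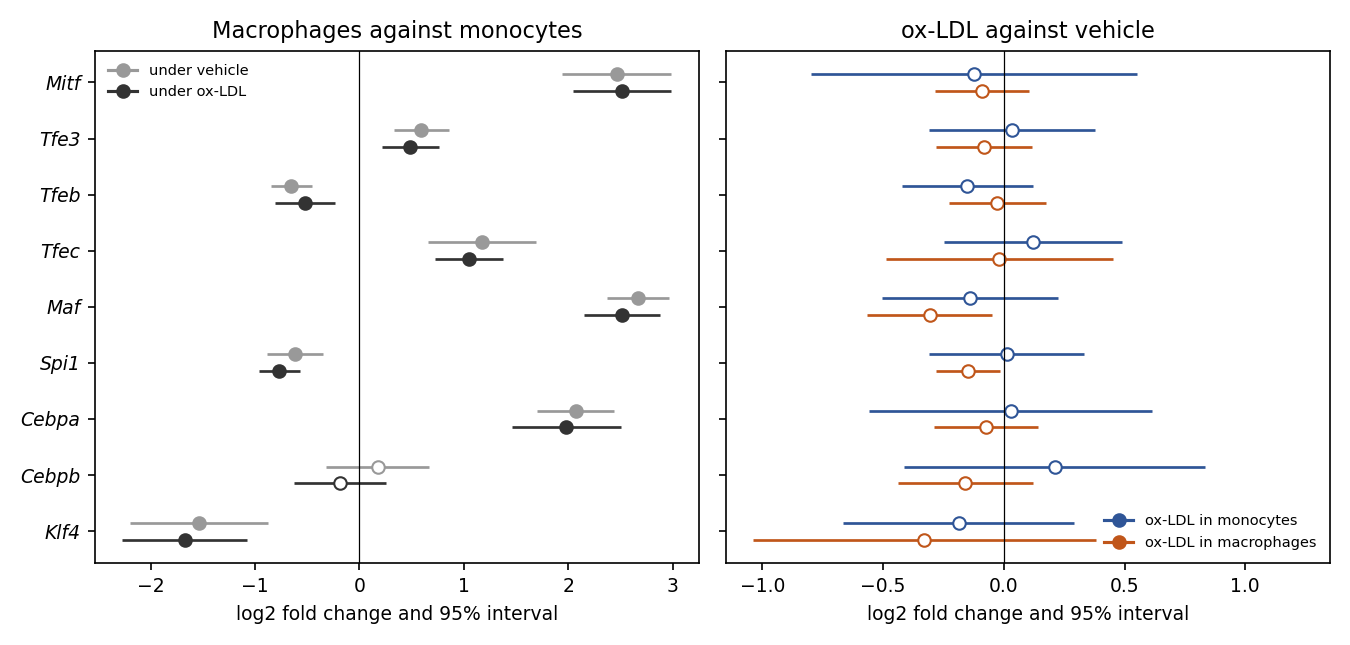
Log2 fold changes (x axis) of the 9 factors (y axis) with 95% intervals, for macrophages against monocytes (left) and for ox-LDL against vehicle (right), with filled points where the adjusted p is under 0.05. The cell-type intervals of 8 genes exclude 0, and those of the ox-LDL effect include 0 except for Maf and Spi1 in macrophages, neither of which passed the adjusted test.

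In monocytes no difference between ox-LDL and vehicle was called for any of the 9 factors by edgeR's test. Among all 16575 genes tested in monocytes 0.0241% were called higher and 0% lower, and at an unadjusted p under 0.05 there were 1718 genes and 0 of the 9. Estimates of the 9 ran from -0.19 (Klf4) to 0.21 (Cebpb) on the log2 scale, with adjusted p from 0.737 to 0.988. Groups overlapped for all 9, against 1.57% of all genes whose groups did not. The 95% intervals reached from -0.80 (Mitf) to 0.83 (Cebpb), the widest bounds among the 9, and differences within a gene's interval remain compatible with these data. Intervals of other genes were narrower, such as -0.42 to 0.12 for Tfeb, -0.25 to 0.49 for Tfec and -0.50 to 0.23 for Maf. DESeq2 and limma voom also called none of the 9.

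In macrophages none of the 9 was called by the adjusted test either, and all 9 estimates were below 0. Among all 14543 genes tested, 0.976% were called higher and 1.38% lower, and 3.29% had groups that did not overlap, against 0 of the 9. With counts scaled by library total in place of TMM, 92 genes were higher and 334 lower, against 142 and 200. The smallest unadjusted p was that of Maf, at 89.0 ± 12.7 CPM with vehicle (SD, n = 5) and 71.6 ± 11.3 CPM with ox-LDL (n = 6), a difference of -0.31 (SE 0.12, 95% interval -0.57 to -0.05, unadjusted p = 0.0240, edgeR adjusted p = 0.250, 0.125 to 0.713 over 18 alternatives). Spi1 stood at 540 ± 34.8 and 485 ± 31.3 CPM, a difference of -0.15 (SE 0.06, 95% interval -0.28 to -0.01, unadjusted p = 0.0318, edgeR adjusted p = 0.287, 0.0903 to 0.939 over 18 alternatives). For both genes the libraries of the groups overlapped. The MiT/TFE estimates were closer to 0, with Mitf at -0.09 (95% interval -0.29 to 0.10), Tfe3 at -0.08 (-0.28 to 0.12), Tfeb at -0.03 (-0.23 to 0.17) and Tfec at -0.02 (-0.49 to 0.45). Replicate J had the lowest level of its group for 7 of the 9 genes, and without it the difference was -0.24 for Maf and -0.13 for Spi1. Replicates C, D, I and J had dendritic cell marker sums of 205 to 259 CPM, against 74.8 to 163 CPM in the other macrophage libraries. Cebpb was at 187 to 237 CPM in these and 239 to 320 CPM in the others. Maf was at 79.9 and 72.1 CPM in C and D and 60.3 and 54.6 CPM in I and J, lowest of their groups. Cebpa and Spi1 overlapped between them. How many of all genes split so was not counted, and the part of this split in the ox-LDL estimates was not tested. DESeq2 and limma voom called none of the 9.

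Whether monocytes and macrophages differed in their response to ox-LDL was tested as an edgeR interaction over all 4 groups, and none of the 9 was called. In that test 0.00573% of 17466 genes had a higher and 0.0573% a lower effect in macrophages. The largest estimate was that of Cebpb, -0.34 (95% interval -1.02 to 0.33, edgeR adjusted p = 0.891), and 0 of the 9 had an unadjusted p under 0.05. DESeq2 and limma voom called none.

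Genes of the pathways around these factors were followed by lists. Of 49 lysosome and autophagy genes of the CLEAR network, 40 were higher and 4 lower in macrophages than in monocytes with vehicle, with a median log2 difference of 1.14 against -0.09 over all genes tested. Over all genes 28.5% were called higher and 35.1% lower. With ox-LDL the counts were 37 higher and 5 lower, with a median of 1.01 against -0.07. The shares over all genes were then 30.3% and 35%. Atp6v0d2, a proton pump subunit of osteoclasts and macrophages, went from 3.42 ± 1.02 to 278 ± 70.6 CPM (log2 difference 6.26, SE 0.27, adjusted p = 3.43e-10). Ctsf, the lysosomal protease cathepsin F, went from 2.38 ± 1.97 to 49.8 ± 6.72 CPM (4.3, SE 0.43). Gpnmb, a glycoprotein of lipid-laden and lysosome-stressed macrophages, went from 1398 ± 437 to 20340 ± 2519 CPM (3.79, SE 0.19). Autophagy genes of the list went both ways in mean level with vehicle. Sqstm1 went from 3135 to 1421, Uvrag from 313 to 84.1 and Map1lc3b from 414 to 351 CPM. Gabarapl1 went from 62.4 to 138 and Wipi1 from 7.47 to 17.0 CPM. Without the monocyte libraries high in neutrophil markers the vehicle counts were 40 and 4, and without those low in erythroid markers 38 and 3. Gpnmb is also among the 18 macrophage markers, whose sum was higher in every macrophage library, and the part of the cells' makeup in the list's count was not tested.

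With or without the CLEAR motif in a window, most genes of the list were higher. Promoter windows were found for 39 of the 49 genes, and 9 of those (23.1%) held TCACGTGA, against 1.12% of all 27025 genes of the table; the CLEAR network was first drawn up partly from this motif, so that share is no independent result. With vehicle, 7 of the 9 were higher in macrophages and none lower (median 1.60), as were 7 of 7 with only the E-box (median 2.46). Of 23 with a window but no E-box, 17 were higher and 4 lower (median 0.89). Among the 10 without a window, 9 were higher and none lower (median 1.20). Over all genes 28.5% were called higher and 35.1% lower. Of the genes whose motif is printed above, Ctsd was higher by 2.86, Atp6v1a by 1.85, Gla by 1.80, Cln3 by 1.18 and Mcoln1 by 1.05 on the log2 scale.

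With ox-LDL few CLEAR genes passed the test, and more of the estimates lay above 0 than below. Over all genes tested in macrophages, 0.976% were called higher and 1.38% lower. Of the 48 CLEAR genes tested there, 3 were higher and none lower, with 40 estimates above 0 and a median of 0.13 against 0.00 over all genes. The 3 were Psap, the precursor of sphingolipid activator proteins (21158 ± 4876 to 34466 ± 6470 CPM; 0.71, SE 0.16, adjusted p = 0.0356), Fnip2, a partner of folliculin in nutrient sensing (413 ± 46.6 to 609 ± 129 CPM; 0.57, SE 0.13, adjusted p = 0.0414), and Gla (206 ± 42.2 to 280 ± 14.6 CPM; 0.45, SE 0.11, adjusted p = 0.0474). These calls were close to the threshold: of 18 alternatives Psap was called in 10, Fnip2 in 8 and Gla in 6, all with the same sign. All 3 calls were lost in 1 fit over 4 groups and without any one of replicates B, E, G, H, K or L, where the adjusted p reached 0.437 for Psap, 0.638 for Fnip2 and 0.133 for Gla. That of Psap was also lost without C, that of Fnip2 without A, C or D, and that of Gla without A, I or J and under DESeq2's size factors or total counts. At an unadjusted p under 0.05 there were 21 of the 48, of which 18 were above 0, against 2062 of 14543 genes in all. DESeq2 called 9 of the 48 and limma voom 3, against 698 and 339 of 14543 genes in all. In monocytes 0 of 49 were called by edgeR, against 0.0241% of all genes called higher and 0% lower. Of the 49, 41 estimates lay above 0, with a median of 0.25 against 0.00. There 17 had an unadjusted p under 0.05, of which 16 were above 0, against 1718 of 16575 genes in all. DESeq2 called 5 higher, limma voom 1, edgeR on genes of at least 5 CPM 2, and 1 fit over 4 groups 8. Over all genes these called 161, 7, 13 and 259, of 16575, 16575, 9581 and 17466 tested. Markers of other cell types also differed in level between these groups without a call: the median over 10 B-cell markers was -0.50, with none above 0, and that over 11 erythroid markers 0.39. Their part in the CLEAR estimates was not tested. There Gla stood at 56.1 ± 8.19 and 95.9 ± 6.08 CPM (0.77, SE 0.12, edgeR adjusted p = 0.0526), and with 3 library sets as a covariate, an alternative added after seeing the data, 5 were called higher (Ctsb, Gla, Atp6v0d2, Atp6v1c1 and Gpnmb). Over all genes that fit called 227 of 16575. The edgeR interaction test called none of the 49, with 7 at an unadjusted p under 0.05 against 1261 of 17466 genes in all, and DESeq2 and limma voom called none.

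Of 24 genes that pass nutrient and calcium signals to the MiT/TFE proteins, 15 were higher and 4 lower in macrophages with vehicle (median 0.63) and 14 and 3 with ox-LDL (median 0.42). Over all genes 28.5% were higher and 35.1% lower with vehicle, and 30.3% and 35% with ox-LDL. Fnip2 (2.56, SE 0.23) and Map4k3, a kinase of amino acid signalling (22 to 96.1 CPM; 2.04, SE 0.19), were higher. Rptor, which encodes the mTORC1 subunit raptor, fell from 204 ± 58.9 to 59.5 ± 5.85 CPM (-1.86, SE 0.20, adjusted p = 2.18e-06). With ox-LDL, edgeR called 1 of the 24 in macrophages, Fnip2 (DESeq2 called 3 and limma voom 1). Over all 14543 genes tested there, edgeR, DESeq2 and limma voom called 342, 698 and 339. In monocytes edgeR, DESeq2 and limma voom called none of the 24, and 4 had an unadjusted p under 0.05, against 1718 of 16575 genes in all. Of 12 osteoclast genes tied to Mitf and Tfe3, 10 were tested with vehicle, with 6 higher and 2 lower. Dcstamp, needed for osteoclast fusion, went from 1.91 ± 0.715 to 36.4 ± 25.0 CPM (4.17, SE 0.50), and Clcn7, a lysosomal chloride transporter, from 143 ± 29.1 to 458 ± 35.0 CPM (1.60, SE 0.15). The 2 lower were Acp5 (140 ± 43.0 to 54.8 ± 6.07 CPM) and Tnfrsf11a (293 ± 69.7 to 164 ± 19.1 CPM). In ox-LDL macrophages Acp5, tartrate-resistant acid phosphatase, fell from 54.8 ± 6.07 to 41.4 ± 2.49 CPM (-0.40, SE 0.08, adjusted p = 0.0194, called in 15 of 18 alternatives, and lost without B, without H and in 1 fit over 4 groups, at up to 0.695). Of 8 melanocyte genes tied to Mitf, only Pmel passed the filter. It was called lower in macrophages, at 1.93 ± 0.577 CPM in vehicle monocytes and 0.582 ± 0.133 CPM in vehicle macrophages.

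The genes tied to the lineage factors moved in several directions. As for the lists above, their counts with vehicle stand beside 28.5% of all genes called higher, 35.1% called lower and a median of -0.09. Of 15 myeloid genes tied to PU.1, 9 were higher and 3 lower in macrophages with vehicle (median 1.68), among them Mpeg1, a pore-forming protein of phagocytes (209 to 1414 CPM; 2.69, SE 0.35), Csf1r (791 to 4564 CPM; 2.45, SE 0.20) and Cd14, the co-receptor for lipopolysaccharide (90.8 to 455 CPM; 2.26, SE 0.25), while Spi1 itself was lower. In ox-LDL macrophages 3 of the 15 fell and none rose, against 1.38% of all genes called lower and 0.976% higher. Cd14 fell from 455 ± 77.3 to 223 ± 32.1 CPM (-1.02, SE 0.12, adjusted p = 0.000760, called in 17 of 18 alternatives), and the Fc receptor gene Fcgr1 (-0.60, adjusted p = 0.0322) and the NADPH oxidase subunit gene Ncf4 (-0.36, adjusted p = 0.0431) were called in 11 and 8 of 18. Cd14 was lost in 1 fit over 4 groups (adjusted p = 0.0639). Fcgr1 was lost there and without B, E, H, J, K or L (up to 0.195), and Ncf4 there and on leaving out any 1 macrophage library except C or K (up to 0.356). Of 13 tested genes tied to c-Maf, 10 were higher and 1 lower in macrophages with vehicle (median 2.16). C1qa, C1qb, C1qc and Mrc1 of this list are also among the 18 macrophage markers, as are Csf1r, Cd68 and Fcgr1 of the PU.1 list. The part of the cells' makeup in the counts of both lists was not tested. Selenop, a selenium carrier, went from 71.4 to 1527 CPM (4.34, SE 0.19) and Gas6, a ligand for the uptake of dying cells, from 26.3 to 463 CPM (4.05, SE 0.22), and the fall was that of Timd4, a phosphatidylserine receptor (12.7 to 0.577 CPM). In ox-LDL macrophages 1 of 12 fell and none rose, against 1.38% and 0.976% of all genes. The median of the 12 was -0.39 against 0.00 over all genes, with 3 estimates above 0. C1qc, a chain of complement C1q, went from 2002 ± 179 to 1515 ± 195 CPM there (-0.40, SE 0.09, adjusted p = 0.0402, called in 9 of 18 alternatives, and lost in 1 fit and on leaving out any 1 library except C, I or K, at up to 0.977).
Of 14 granulocyte genes tied to C/EBP factors, 10 were tested with vehicle and 9 of them were lower in macrophages. S100a9, a calcium-binding protein of neutrophils, stood at 3282 ± 3852 CPM in vehicle monocytes and 0.352 ± 0.413 CPM in vehicle macrophages. S100a9 is also among the 17 neutrophil markers, and the part of neutrophils in the difference was not tested. Of 47 other transcription factors of myeloid lineages, 14 were higher and 24 lower with vehicle (median -0.65), and the higher ones make up about the share found over all genes. Spib, a PU.1 relative of B cells and plasmacytoid dendritic cells, stood at 121 ± 24.6 CPM and 0.0569 ± 0.0780 CPM, and Nr4a3, an orphan nuclear receptor, at 61.9 ± 11.0 and 0.264 ± 0.200 CPM. In ox-LDL macrophages Bhlhe41, a repressor of the basic helix-loop-helix class, rose from 16.9 ± 1.52 to 27.4 ± 2.94 CPM (0.71, SE 0.09, adjusted p = 0.00130, called in 17 of 18 alternatives), and Irf5, a factor of inflammatory macrophages, fell from 290 ± 16.4 to 239 ± 16.5 CPM (-0.27, SE 0.06, adjusted p = 0.0319, called in 7 of 18). The call of Bhlhe41 was lost in 1 fit (adjusted p = 0.158), and that of Irf5 there, with no filter and on leaving out any 1 of these libraries except C or I (up to 0.420).

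**Figure D4:**
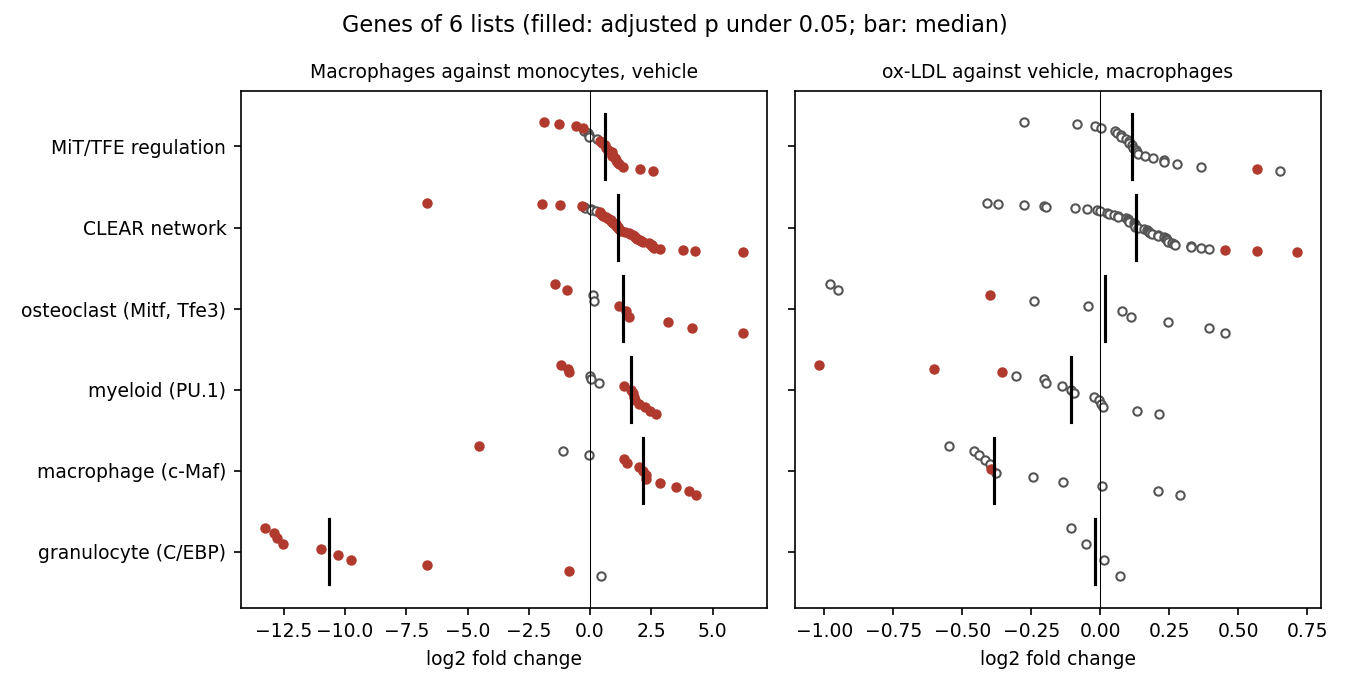
Log2 fold changes (x axes) of the tested genes of 6 lists (y axis), 1 point per gene, filled where the adjusted p is under 0.05, with the list median as a bar, for macrophages against monocytes with vehicle (left) and for ox-LDL in macrophages (right). The CLEAR list has a median of 1.14 in the first and 0.13 in the second.

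The monocyte libraries fell into sets by the markers of other cell types, drawn after seeing the data, and Cebpb and Tfe3 differed between them. The sets are not groups of the study: 3 libraries (1, 2 and 7) were low in erythroid markers at 454 to 880 CPM, 4 libraries (5, 6, 10 and 11) were high in neutrophil markers at 35045 to 50787 CPM, and 4 libraries (3, 4, 8 and 9) were neither. Each set holds vehicle and ox-LDL libraries. The erythroid-low libraries were also the highest in B-cell markers, at 608 to 895 CPM against 230 to 518 CPM in the others. Their T-cell and NK-cell markers summed to 200 to 226 CPM against 94.2 to 222 CPM. Cebpb followed the sets without overlap, at 115 to 139.5 CPM in the erythroid-low libraries, 221 to 269 CPM in those that were neither and 280 to 362 CPM in the neutrophil-high ones. Tfe3 was at 126 to 131 CPM in the first 7 of these libraries and at 142 to 199 CPM in the 4 neutrophil-high libraries. Mitf was at 5.15 to 8.03, 7.52 to 16.9 and 11.6 to 16.9 CPM, and Cebpa at 37.0 to 61.3, 35.1 to 83.7 and 64.6 to 88.1 CPM in the same order of sets. For both genes neighbouring sets overlapped. Spi1 was at 666 to 776, 653 to 865 and 771 to 1078 CPM. All sets overlapped for Spi1, Maf, Tfec and Klf4. How many of all genes separate between these sets was not counted. Tfeb was at 183 to 186 CPM in the erythroid-low libraries and at 123 to 183 CPM in the other 8. The part of neutrophils, erythroid cells or lymphocytes in these levels was not tested.

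**Figure D5:**
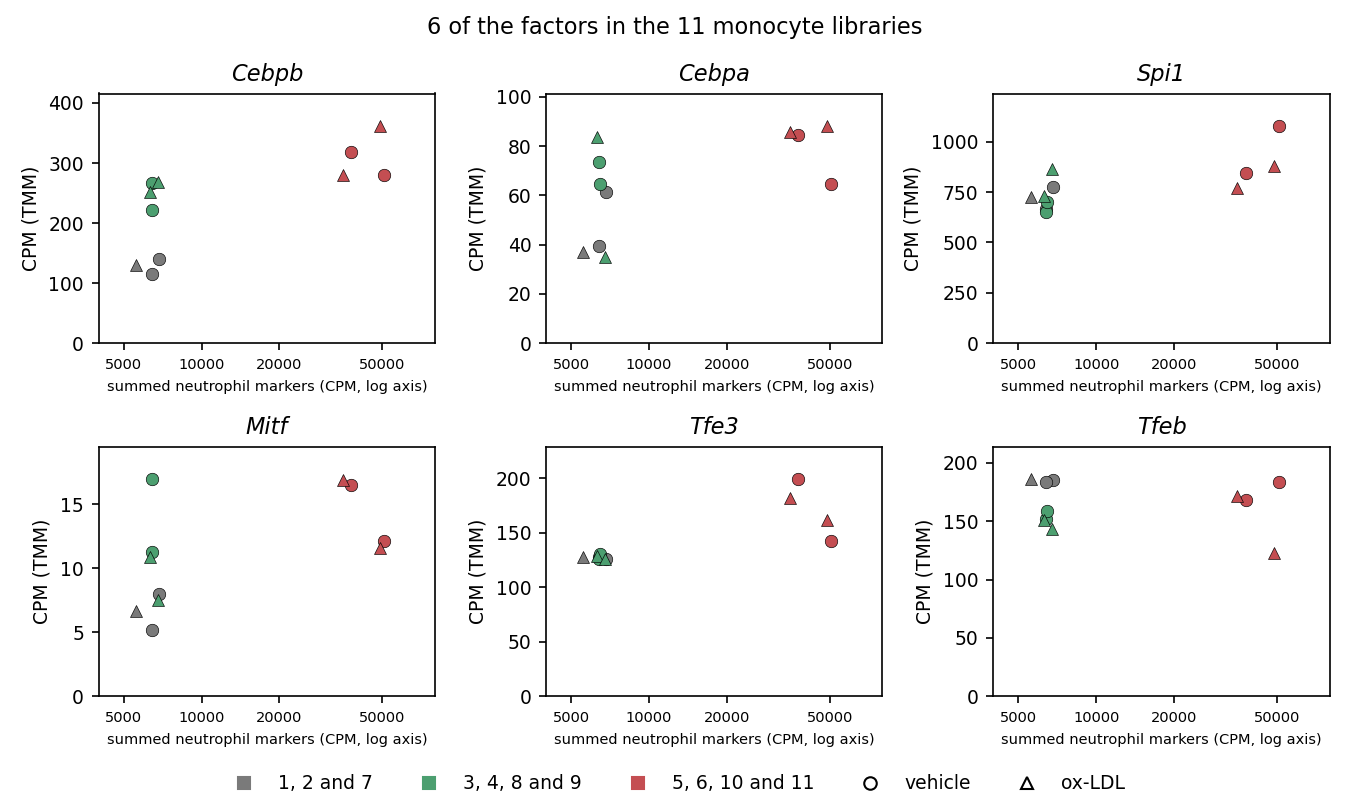
CPM of 6 of the factors (y axes) in the 11 monocyte libraries against the summed CPM of 17 neutrophil markers (x axes, log scale), 1 point per library, coloured by library set, with circles for vehicle and triangles for ox-LDL. Cebpb is lowest in the 3 erythroid-low libraries and at 280 to 362 CPM in the 4 neutrophil-high libraries.

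The genes most like each factor in pattern were found as those with the smallest root mean square difference in log2 CPM after centring over the 22 libraries, among 9555 genes whose mean reached 5 CPM. The closest match of all was that of Tfe3 with Fermt3, which encodes an integrin activator of blood cells, at 0.0781. Spi1 was closest to Eif4ebp1 (0.0955), a target of mTORC1, and to Cnppd1 (0.1), and Tfeb to Rbm10 (0.129) and Cactin (0.133). Mitf was closest to the nucleotide receptor gene P2ry6 (0.282) and to Nav2 (0.308), Maf to Retsat (0.240) and Selenbp1 (0.245), and Cebpa to Mfsd13a (0.206) and Rnf149 (0.240). Cebpb was closest to Ugt1a7c (0.170) and Ifitm2 (0.224), Tfec to Gm49172 (0.261) and Ube2q2 (0.262), and Klf4 to Slc25a38 (0.404) and Ier5 (0.407). For genes that differ between the cell types this likeness is mainly a like difference between the 11 monocyte and the 11 macrophage libraries, and it is given as a description.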

How the data were processed

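Polyadenylated RNA was made into libraries with the SMARTer Ultra Low kit from 10 ng of total RNA, per the labels. Per the submitters' processing notes, reads were aligned with STAR 2.7.9a to GRCm38 and counted per gene with featureCounts 2.0.3; the strand setting is not given in the sources used here. The authors deposited for each of the 22 libraries raw counts, CPM, FPKM and TPM per gene, and the deposited CPM, FPKM and TPM followed from the counts and gene lengths with 0 departures in values at a relative tolerance of 1e-06. Of 55487 gene IDs, 55141 matched a symbol.

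Counts were tested in edgeR 4.0.16 (R 4.3.3) with TMM scaling, filterByExpr and the quasi-likelihood F-test, each comparison fitted on its own libraries, and the difference of the ox-LDL effects fitted over 4 groups. Adjusted p-values are Benjamini-Hochberg over all genes tested. The code of the fit was run on simulated counts, drawn with the dispersions of the fit itself, planted changes and no library sets. That run does not test the calls in these data. Members and lists were chosen with earlier results of these data known. From each list up to 3 called genes with the largest absolute change among those with a mean of at least 5 CPM are named per comparison. Where none is called, up to 2 with the highest CPM are named. Some named by this rule are left out. Gla in monocytes, Ccr7, Ly6c2, Cd4, Lck, Chil3, the genes at 0 and the motif genes were named outside it. So were Tmem189, the autophagy genes, Acp5 and Tnfrsf11a with vehicle, and genes shared between lists. Alternatives were DESeq2 size factors, total counts, no filter, a minimum of 5 CPM, DESeq2 1.42.0, limma voom 3.58.1, 1 fit over 4 groups, and each library left out. Leaving out either set of monocyte libraries and the sets as a covariate were chosen after seeing the data.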

Additional observations from a re-analysis of the deposited data

Results flagged for a closer look

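In the 6 vehicle monocyte libraries, Tfe3 stood at 199 CPM in replicate 6 and at 126 to 142 CPM in the other 5, a gap of 0.779 of the range against a critical value of 0.625 for 6 values (Dixon). It was the only one of 36 sets of values tested (9 genes in 4 groups) past that limit, which chance passes in about 1 of 20 sets. Replicate 6 is 1 of the 4 monocyte libraries high in neutrophil markers, in which Tfe3 ran from 142 to 199 CPM. The part of neutrophils in this value was not tested.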

How the results depend on the processing

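No paired analysis was possible because the groups share no replicate names (1 to 6, 7 to 11, A to E and G to L). The 8 calls between cell types kept their direction in every alternative in which the gene was tested. For ox-LDL in monocytes 4 genes were called, and 9 with no filter, 13 at 5 CPM or more, 161 with DESeq2, 7 with limma voom, 259 in 1 fit over 4 groups, 227 with the library sets as a covariate, 0 in edgeR without the neutrophil-high and 0 without the erythroid-low libraries (2689 and 1432 at an unadjusted p under 0.05), and 0 to 8 with 1 library left out. In macrophages 342 genes were called, and 698 with DESeq2, 80 in 1 fit and 150 to 348 with 1 library left out (150 without B or without E). Between cell types 10369 (vehicle) and 10344 (ox-LDL) were called, and 6761 and 6837 at 5 CPM or more. For the interaction 11 were called, and 5 with total counts, 60 with DESeq2, 129 without the neutrophil-high and 4 without the erythroid-low libraries, and 1 to 44 with 1 library left out (44 without ox-LDL monocyte replicate 10). Of the CLEAR genes, 0 to 3 were called for ox-LDL in macrophages with 1 library left out.

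Estimates near 0 changed sign without any call. For ox-LDL in monocytes Tfe3 was -0.016 with total counts, -0.022 without the neutrophil-high and -0.0073 without the erythroid-low libraries. Tfec was -0.030 without the neutrophil-high libraries. Spi1 was -0.033 with total counts, -0.014 at 5 CPM or more, -0.0095 in 1 fit and -0.023 without the erythroid-low libraries. Cebpa was -0.032 with total counts, -0.059 with limma voom, -0.0021 in 1 fit, -0.22 without the neutrophil-high libraries and -0.11 with the covariate. With 1 library left out the estimates ran from -0.35 to 0.0098 for Mitf, -0.066 to 0.14 for Tfe3, -0.040 to 0.13 for Spi1 and -0.10 to 0.19 for Cebpa.

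For ox-LDL in macrophages Tfec was 0.040 with limma voom, and with 1 library left out Tfeb ran from -0.079 to 0.030, Tfec from -0.16 to 0.16 and Cebpa from -0.17 to 0.00020. Between cell types Cebpb was -0.10 with vehicle without the erythroid-low libraries and 0.034 with ox-LDL without the neutrophil-high ones. For the interaction Tfec was 0.028 and Cebpa 0.17 without the neutrophil-high libraries, and Cebpa 0.028 and Klf4 0.0014 with limma voom. With 1 library left out the interaction ran from -0.078 to 0.28 for Mitf, -0.25 to 0.067 for Tfec, -0.23 to 0.034 for Cebpa and -0.30 to 0.094 for Klf4. The cause of these changes was not tested. Counts were low for Klf4 (41 to 150 per macrophage library) and Tfec (114 to 187 per monocyte library), which limits their precision.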
